A study of Homo sapiens with 3 samples.

Results

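Aminoacyl-tRNA synthetases are the enzymes that join each amino acid to its tRNA, and 35 genes for them were followed in HCT116 cells, a human colon cancer cell line, after silencing of *HOXA5* short RNA, a transcript of the *HOXA6*-*HOXA5* locus. The members were the gene probes whose transcript accession belongs to 19 cytosolic and 16 mitochondrial enzymes, out of 21612 genes with a named probe. A probe was used when it was well above background on all 3 arrays, and the brightest such probe stood for its gene. This left 34 members (19 cytosolic and 15 mitochondrial) among 12031 genes. The aspartate enzymes are outside the list and were not analysed here.

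The cells of all 3 groups were unmodified HCT116 cells transfected for 48 h at 10 nM, the first group with a non-targeting control siRNA, the second with siRNA #7 and the third with siRNA #8. Both targeting siRNAs lie on the junction of the first and last exon of *HOXA5* short RNA. Total RNA (400 ng) of each group was labelled with Cy3 and hybridised to 1 Agilent array, so there is no replicate check, no test was possible between conditions, and no p-value is given. Each array measured the RNA of a whole culture, so that fewer cells of a kind and less RNA per cell cannot be told apart.

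Cells keep separate sets of synthetases for the cytosol and for the mitochondrial matrix, nearly all encoded in the nucleus by different genes, while *GARS1* and *KARS1* each supply both compartments. Uncharged tRNA, which builds up when an amino acid runs short, activates the kinase GCN2, whose phosphorylation of eIF2 favours translation of the transcription factor ATF4. ATF4 binds C/EBP-ATF response elements (CARE) and drives genes of amino acid synthesis and transport as well as many, but not all, cytosolic synthetase genes.

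The siRNA sequences are shown because siRNA #7 and siRNA #8 gave different values for several synthetases below. Of the 21 bases of each, 17 are shared (capitals), shifted along the target by 4 bases, and the strand is not stated in the sources used here.
siRNA #7: gagaAACUGAAAGACAACAUA
siRNA #8: AACUGAAAGACAACAUAggcg

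The promoters that carry a CARE bear on the ATF4-linked enzymes described below. The letters TGATGNAA were searched on both strands of RefSeq promoter windows (GRCh38.p14, 250 bases before to 50 after each start), which were present for 30 of 35 members and not used for *LARS1*, *VARS1*, *YARS1*, *AARS2* and *VARS2*. Capitals mark the match in 30 bases written along the gene's own strand, and the genes are those of alanine, cysteine, glycine, isoleucine, methionine, asparagine and threonine in the cytosol and of tyrosine in mitochondria.
AARS1, chr16:70289675-70289704, minus strand: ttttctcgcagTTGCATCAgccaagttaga
CARS1, chr11:3057407-3057436, minus strand: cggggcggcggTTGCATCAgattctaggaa
GARS1, chr7:30594834-30594863, plus strand: ttacgcggcgaTTTCATCAtgctccgagcc
IARS1, chr9:92293692-92293721, minus strand: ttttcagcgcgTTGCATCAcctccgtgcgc
MARS1, chr12:57488053-57488082, plus strand: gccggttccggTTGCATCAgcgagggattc
NARS1, chr18:57621804-57621833, minus strand: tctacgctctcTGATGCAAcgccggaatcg
TARS1, chr5:33440956-33440985, plus strand: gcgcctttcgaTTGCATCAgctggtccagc
YARS2, chr12:32756076-32756105, minus strand: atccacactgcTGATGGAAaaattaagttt

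These 8 of 30 members compare with 2.60% of the 9513 genes that had a window and a usable probe, and 3.62% of all 35116 windows. The match was found in 7 of 16 cytosolic and 1 of 14 mitochondrial members. No match of the other letters searched (CACGTG, GCGCATGC and CCGGAAG) overlapped these 8. CCGGAAG, part of the ETS factor motif, was in 16 of 30 members, against 22.7% of genes with a usable probe and 10.3% of all windows. CACGTG, the E-box, was in 4 of 30 members (13.3%), near the 13.0% of genes with a usable probe, and in 7.26% of all windows. GCGCATGC, part of the NRF1 motif, was in 2 of 30 members (6.67%), near the 6.50% of genes with a usable probe, and in 3.05% of all windows. A match describes these letters in this window and is not a bound site.

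Values are spot intensities with the background subtracted, and ratios are log2 differences after each array was scaled to its own 75th percentile, which was an intensity of 52.8 in control cells, 42.1 after siRNA #7 and 42.8 after siRNA #8. The error given is the spot-to-spot SD, taken from probes printed 10 times on each array. It covers spotting and scanning on these arrays and not the spread between cultures, which the number of arrays leaves unknown. The 3 arrays shared a slide, between 19066 and 20471 probes were well above background on each, and no spot was saturated. The probe for *HOXA5*, which need not distinguish its short RNA, read 84.9 in control cells, 52.6 after siRNA #7 and 58.5 after siRNA #8, log2 ratios of -0.36 ± 0.25 and -0.23 ± 0.26. Of 6 colon epithelial markers 5 were well above background on all arrays and *LGALS4* on none, while *PTPRC*, *CD3E* and *PECAM1*, markers of leukocytes, T cells and endothelium, were on none. *COL1A1* and *CD68* passed on all arrays with intensities up to 48.1 and 15.4.

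As a group, the synthetases stayed close to the control. With siRNA #7 the median log2 ratio was 0.15 for the cytosolic and 0.12 for the mitochondrial enzymes, beside 0.016 for all genes, and 24 of 34 members were above 0, compared with 51.7% of all genes. With siRNA #8 the medians were -0.020 and -0.031, beside 0.007 for all genes, and 13 of 34 members were above 0, compared with 50.8%. The sign of these medians depended on the scaling, since with E1A spike-in scaling the cytosolic and mitochondrial medians with siRNA #7 were -0.13 and -0.16, when the median of all genes was -0.26. Without a filter on dim probes the median of all genes with siRNA #7 was 0.15, beside 0.15 and 0.12 for the cytosolic and mitochondrial enzymes.

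The medians of the compartments lay close together, which was not tested. The cytosolic median exceeded the mitochondrial by 0.028 with siRNA #7 and by 0.011 with siRNA #8, and after removal of the deviation of neighbouring spots by 0.18 and 0.12. With siRNA #7 the median absolute log2 ratio of the 34 members was 0.22, near the 0.24 of all genes. With siRNA #8 it was 0.14, below the 0.27 of all genes. With siRNA #7, 12 members (35.3%) lay within 1 spot-to-spot SD of 0 and 11 (32.4%) beyond 2 SD, compared with 42.4% and 29.8% of all genes. With siRNA #8 these numbers were 17 and 8, compared with 40.8% and 31.3% of all genes.

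**Figure D1:**
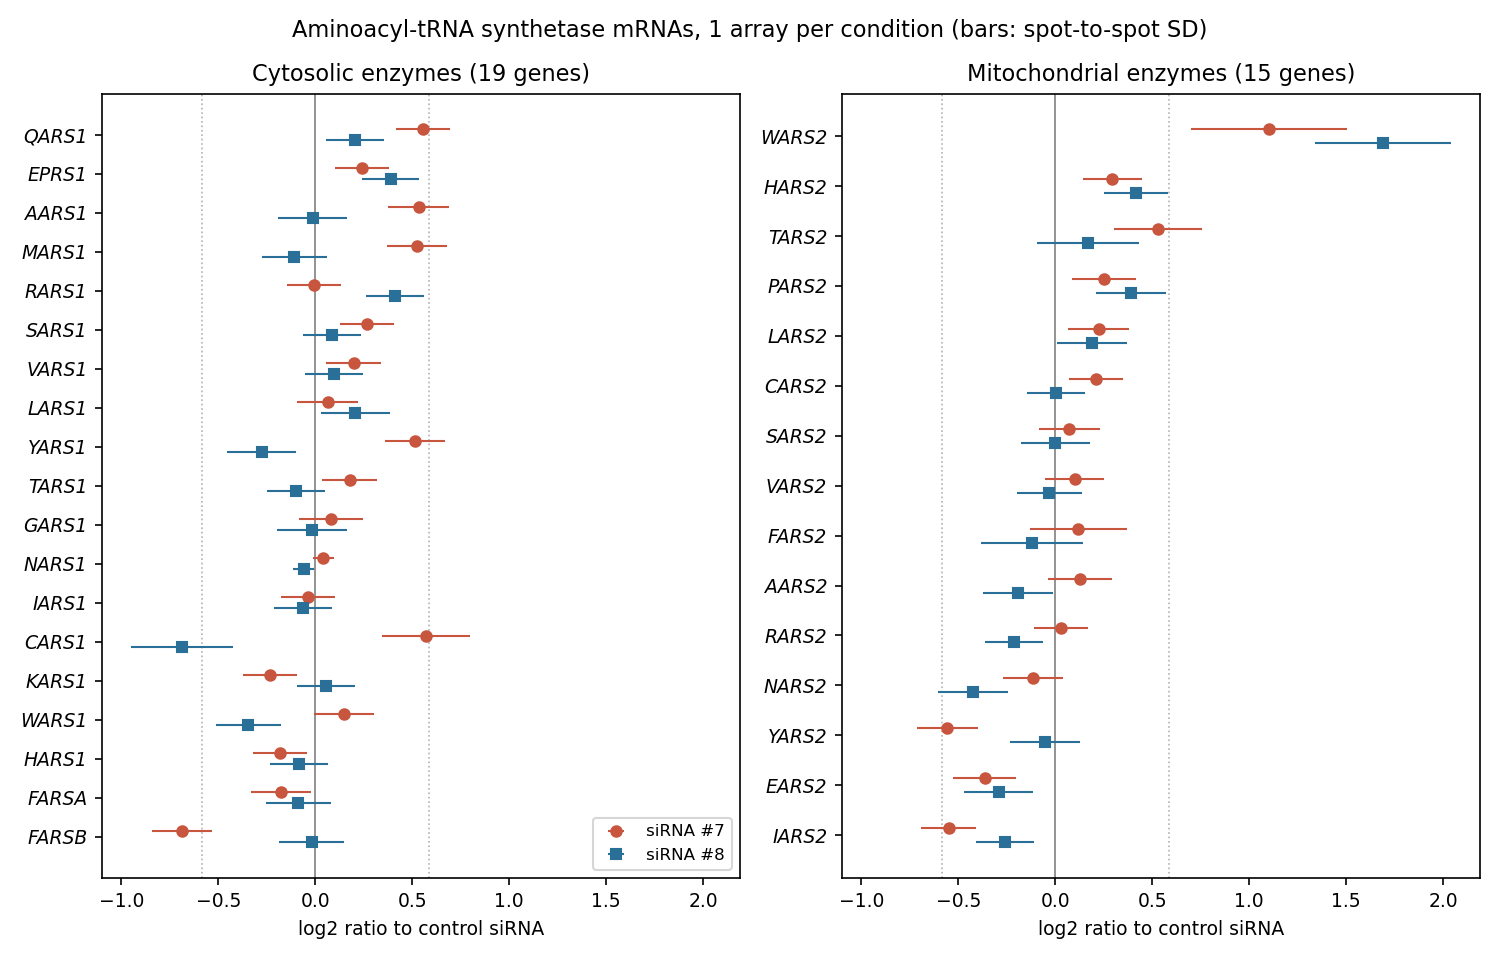
Log2 ratio to control siRNA (horizontal) of each of the 19 cytosolic and 15 mitochondrial enzymes measured, ordered by the mean of both siRNAs, with bars for 1 spot-to-spot SD and dotted lines at 1.5-fold. Most points lie between the dotted lines, *WARS2* is the exception with both siRNAs, and *CARS1*, *YARS1*, *MARS1* and *AARS1* have siRNA #7 (circles) well to the right of siRNA #8 (squares).

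Few members passed 1.5-fold. With siRNA #7, *WARS2* was 1.5-fold or more higher, 1 of 34 members beside 7.6% of all genes, and *FARSB* was lower by as much, 1 of 34 beside 6.92%. With siRNA #8, *WARS2* was higher, 1 of 34 beside 7.79% of all genes, and *CARS1* was lower, 1 of 34 beside 10.3%. With both siRNAs the count was 1 higher, beside 3.03% of all genes, and 0 lower, beside 1.67%, with no test at either count. The shares are near or below those of all genes. Both ratios have the same control array as their denominator, so a low or high control value moves both together.

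*WARS2*, the mitochondrial tryptophan enzyme, had the highest ratios of the family. Its intensity was 13.6 in control cells, 23.2 after siRNA #7 and 35.5 after siRNA #8, so both treated arrays read higher although all 3 values lie below the 75th percentile. The log2 ratios were 1.10 ± 0.40 and 1.69 ± 0.35, past 2-fold with both, as for 0.74% of all genes. The 9 usable spots around this probe were also higher, with medians of 0.35 and 0.47, and removing the deviation of the neighbours gave 0.81 and 1.19. Normexp background correction, which shrinks dim spots, gave 0.35 and 0.50, both under 1.5-fold.

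The other members with the highest mean of both ratios were *QARS1*, *HARS2*, *TARS2* and *PARS2*. *QARS1*, the cytosolic glutamine enzyme of the multisynthetase complex, read 2728 in control cells, 3195 after siRNA #7 and 2544 after siRNA #8, log2 ratios of 0.56 ± 0.14 and 0.20 ± 0.15. *HARS2*, for mitochondrial histidine, read 575.1, 562.2 and 622.1, with ratios of 0.30 ± 0.15 and 0.42 ± 0.17. *QARS1* was thus higher mainly with siRNA #7, and *HARS2* about equally with both. *TARS2*, for mitochondrial threonine, read 96.7, 111.2 and 88.1, with ratios of 0.53 ± 0.23 and 0.17 ± 0.26. *PARS2*, for mitochondrial proline, read 173.1, 164.2 and 184.1, with ratios of 0.25 ± 0.16 and 0.39 ± 0.18. All 4 were above the control with both siRNAs, by less than 1.5-fold, although normexp placed *QARS1* at -0.13 and *TARS2* at -0.026 with siRNA #8. E1A spike-in scaling placed *PARS2* below the control with siRNA #7 and *TARS2* below it with siRNA #8.

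The 5 lowest by that mean were *IARS2*, *FARSB*, *EARS2*, *YARS2* and *NARS2*, of which 4 are mitochondrial. *IARS2*, for mitochondrial isoleucine, read 1678 in control cells, 912.8 after siRNA #7 and 1137 after siRNA #8, log2 ratios of -0.55 ± 0.14 and -0.26 ± 0.15. The spots around it had a median ratio of -0.26 with both siRNAs. The alternative that removes the deviation of neighbours, which is not a subtraction of that median, gave -0.43 and -0.023. *EARS2*, for mitochondrial glutamate, read 247.0, 152.9 and 163.7, with ratios of -0.36 ± 0.16 and -0.29 ± 0.18. *NARS2*, for mitochondrial asparagine, read 241.9, 178.0 and 146.1, with ratios of -0.11 ± 0.16 and -0.42 ± 0.18. These 3 were below the control with both siRNAs, and neighbour removal took *EARS2* to -0.49 and *NARS2* to -0.17 with siRNA #8.

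The remaining 2 of the lowest 5 were low with siRNA #7 and near the control with siRNA #8. *FARSB*, the beta subunit of the cytosolic phenylalanine enzyme, read 521.8 in control cells, 257.7 after siRNA #7 and 417.2 after siRNA #8, log2 ratios of -0.69 ± 0.15 and -0.020 ± 0.17. *FARSA*, the alpha subunit of the same enzyme, read 995.7, 701.5 and 759.2, with ratios of -0.18 ± 0.15 and -0.088 ± 0.17, nearer the control than *FARSB* with siRNA #7. Around *FARSB* the neighbouring spots had medians of -0.38 and -0.46, and the alternative that removes the deviation of neighbours gave -0.26 and 0.30. *YARS2*, for mitochondrial tyrosine, read 383.3, 207.5 and 299.5, with ratios of -0.56 ± 0.16 and -0.053 ± 0.18, and with siRNA #8 its ratio was 0.34 after the same removal.

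Partner enzymes for the same amino acid were then set side by side. Among the 16 pairs of measured partners the cytosolic enzyme had the higher ratio in 8 with siRNA #7 and in 10 with siRNA #8, and the partners differed by more than 2 spot-to-spot SD in 6 and 5. The methionine pair could not be compared, because the *MARS2* probe (10 spots per array) was called well above background on none of the 3 arrays. The pairs share *EPRS1*, which carries both the glutamate and the proline enzyme in a single protein, and *FARS2*, which is set against both subunits.

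The tryptophan, glutamate and histidine pairs differed most in the mean of both siRNAs. *WARS1*, the cytosolic tryptophan enzyme, read 569.0 in control cells, 502.2 after siRNA #7 and 363.1 after siRNA #8, log2 ratios of 0.15 ± 0.15 and -0.34 ± 0.17, and *WARS1* minus *WARS2* was -0.95 ± 0.43 and -2.03 ± 0.39. *EPRS1* read 2087, 1965 and 2213, with ratios of 0.24 ± 0.14 and 0.39 ± 0.15, above those of *EARS2* by 0.61 ± 0.21 and 0.68 ± 0.23. *EPRS1* and *PARS2*, the proline partners, differed by -0.011 ± 0.22 and -0.0043 ± 0.23, and *EPRS1* was at -0.042 with siRNA #7 under normexp. *HARS1*, for cytosolic histidine, read 1717, 1206 and 1315, with ratios of -0.18 ± 0.14 and -0.082 ± 0.15, and *HARS1* minus *HARS2* was -0.48 ± 0.21 and -0.50 ± 0.22.

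**Figure D2:**
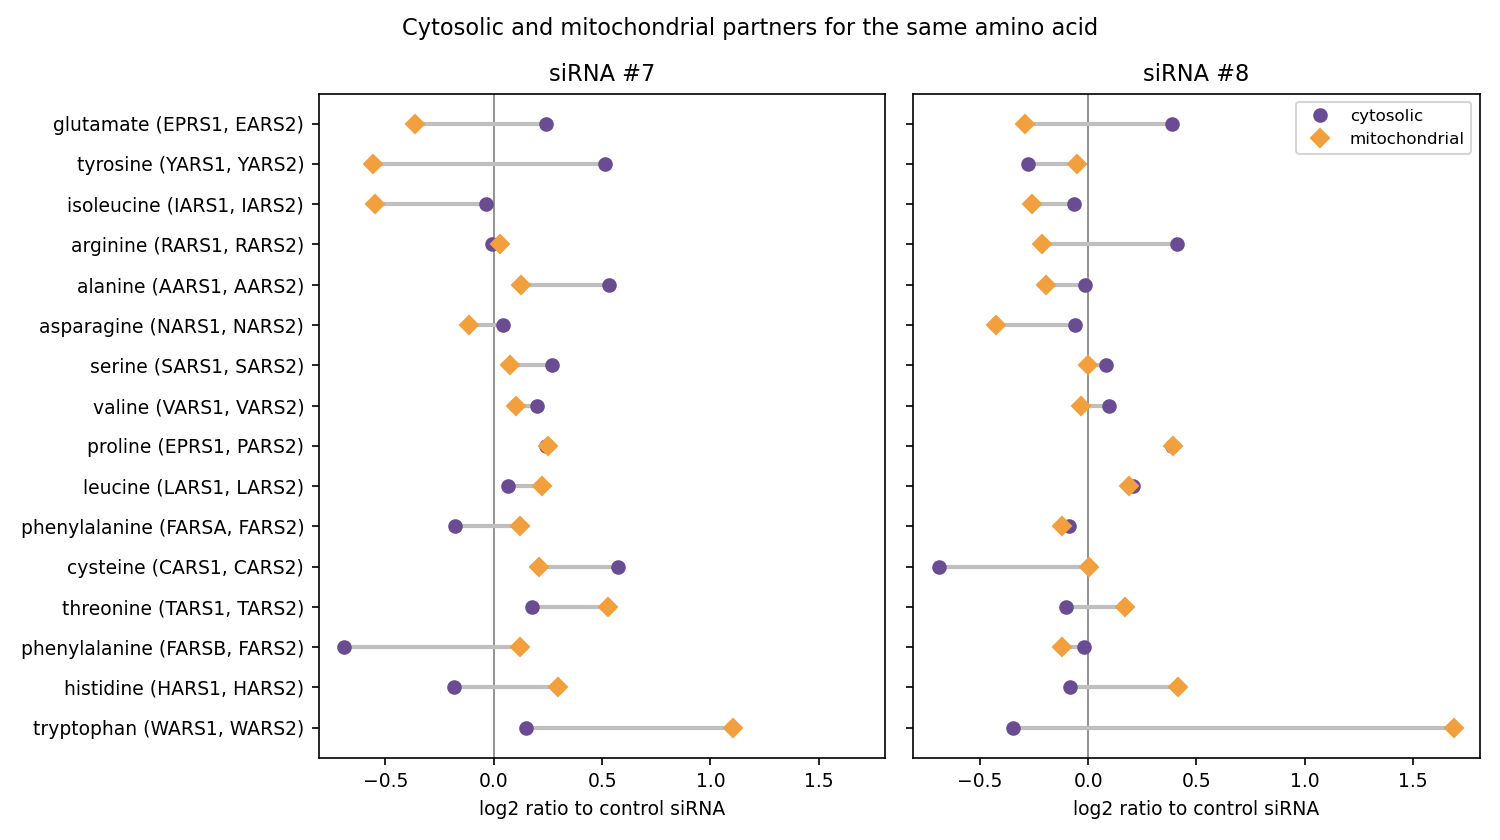
Log2 ratio to control siRNA (horizontal) of the cytosolic (circles) and mitochondrial (diamonds) enzyme of each of 16 measured pairs, joined by a grey line, for siRNA #7 (left) and siRNA #8 (right). The tryptophan, glutamate and histidine pairs are separated in the same order in both panels, whereas the tyrosine pair is separated by 1.07 with siRNA #7 and by -0.22 with siRNA #8.

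*HARS1* and *HARS2* are neighbours transcribed in opposite directions from a shared promoter region, and the windows below are the same bases read from either strand, 1 base apart, with the ETS letters in capitals.
HARS1, chr5:140691435-140691464, minus strand: cagcttcggcaCTTCCGGgaggagccggaa
HARS2, chr5:140691436-140691465, plus strand: tccggctcctcCCGGAAGtgccgaagctgg

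The siRNAs gave opposite directions for 15 of 34 members, or 44.1%, compared with 36.8% of all genes. Of the 34, 13 were above the control with siRNA #7 and below it with siRNA #8, 2 were the reverse, 11 were above with both and 8 below with both. Among the 12031 genes these counts were 2270, 2159, 3952 and 3650, in the same order. Many of the members' ratios lie within 1 spot-to-spot SD of 0, and the signs depend on the scaling: with E1A spike-in scaling 8 members were above the control with siRNA #7 and 7 with siRNA #8. Since the control array enters both ratios, the siRNAs were also compared directly, without it. Between siRNA #8 and siRNA #7, *CARS1*, *MARS1* and *YARS1* were lower with siRNA #8 by 1.5-fold or more, 3 of 34 members beside 11.6% of all genes, and *FARSB* and *WARS2* were higher, 2 of 34 beside 8.87%.

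The enzymes listed as ATF4-responsive lay below the other cytosolic enzymes in this comparison. The list holds 11 cytosolic enzymes (*AARS1*, *CARS1*, *EPRS1*, *GARS1*, *IARS1*, *MARS1*, *NARS1*, *SARS1*, *TARS1*, *WARS1* and *YARS1*), and 10 of 11 were lower with siRNA #8 than with siRNA #7, with a median of -0.28, compared with 51.2% and -0.013 for all genes. Of the other 8 cytosolic enzymes 2 were lower, with a median of 0.12, and of the 15 mitochondrial enzymes 9, with a median of -0.074. The lowest of the 8 was *QARS1*, at -0.35 ± 0.15, and the lowest of the 15 was *TARS2*, at -0.36 ± 0.20. Both lay below the median of the ATF4-responsive enzymes. Against the control, 10 of the 11 were above 0 with siRNA #7 (median 0.24) and 9 were below 0 with siRNA #8 (median -0.066), and with E1A spike-in scaling the median with siRNA #7 turned to -0.035. Under every scaling, background correction, filter and probe choice tried, 9 or 10 of the 11 were lower with siRNA #8 than with siRNA #7, with medians from -0.29 to -0.19. The list is not independent of these data, since it was drawn up with earlier results of them known.

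*CARS1*, the cytosolic cysteine enzyme, differed most. Its intensity was 80.1 in control cells, 94.8 after siRNA #7 and 40.3 after siRNA #8, so the siRNA #8 array was the lowest. The log2 ratios to control were 0.57 ± 0.23 and -0.69 ± 0.26, and the ratio of siRNA #8 to siRNA #7 was -1.26 ± 0.20, past 2-fold, as for 3.37% of all genes in that direction. The neighbouring spots were at -0.50 with siRNA #7 and 0.052 with siRNA #8, opposite to the gene with siRNA #7, and after their removal the ratio with siRNA #7 was 0.99. Normexp gave -0.73 between the siRNAs and the removal of neighbours -1.61.

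*YARS1*, *MARS1*, *AARS1* and *WARS1* followed with the same order of arrays, siRNA #7 highest and siRNA #8 lowest after scaling. *YARS1*, for tyrosine, read 381.1 in control cells, 433.1 after siRNA #7 and 254.8 after siRNA #8, log2 ratios of 0.51 ± 0.16 and -0.28 ± 0.18, and -0.79 ± 0.16 between the siRNAs. *MARS1*, for methionine, read 765.1, 876.2 and 574.8, with ratios of 0.52 ± 0.15 and -0.11 ± 0.17, and -0.63 ± 0.15 between the siRNAs. *AARS1*, for alanine, read 233.9, 269.5 and 187.9, with ratios of 0.53 ± 0.16 and -0.013 ± 0.18, and -0.55 ± 0.16 between the siRNAs. With siRNA #8, *AARS1* and *MARS1* were within 1 SD of the control and *YARS1* was below it by more than 1 SD. *WARS1*, whose values stand above, was at -0.49 ± 0.15 between the siRNAs, or -0.26 without the deviation of its neighbours. These 5 genes were singled out after their values were seen.

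A second probe gave the same order for *MARS1*, with ratios of 0.42 ± 0.25 and -0.33 ± 0.26, and -0.75 ± 0.23 between the siRNAs. The 3 probes of *IARS1*, for cytosolic isoleucine, spread from -0.038 to 0.48 with siRNA #7 and from -0.49 to -0.028 between the siRNAs, the brightest lying nearest 0. *NARS1*, for cytosolic asparagine, is the member measured most precisely, from 8 to 10 usable spots per array with means of 1043, 853.4 and 811.9. Its ratios were 0.042 ± 0.052 and -0.059 ± 0.054, close to the control with both siRNAs, and -0.10 ± 0.051 between them. The list therefore ran from *CARS1* to members with little difference, and *EPRS1* was higher with siRNA #8, by 0.15 ± 0.15.

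**Figure D3:**
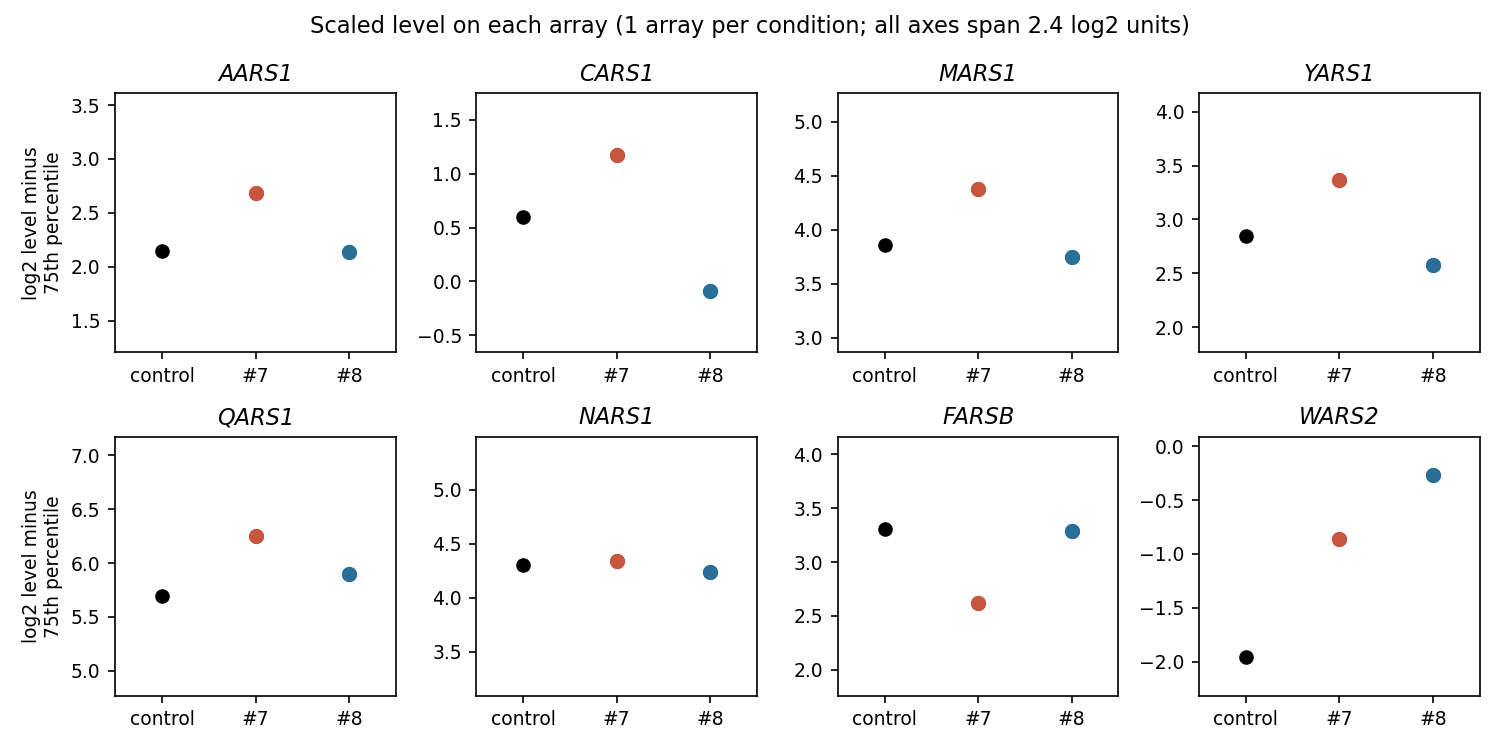
Log2 level minus the 75th percentile of the array (vertical, the same span in each panel) of 8 synthetases on the control siRNA, siRNA #7 and siRNA #8 arrays, 1 point per array. *AARS1*, *CARS1*, *MARS1*, *YARS1* and *QARS1* peak with siRNA #7, *NARS1* is nearly level, *FARSB* dips with siRNA #7 and *WARS2* is lowest with control siRNA.

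All 7 cytosolic genes with a CARE match are on the ATF4-responsive list, 7 of its 10 members with a window, and none of the 6 other cytosolic genes with a window had a match. The log2 ratio of siRNA #8 to siRNA #7 of the 7 ran from -1.26 (*CARS1*) to -0.028 (*IARS1*). *IARS1* and *GARS1* (-0.099 ± 0.17) lay within 1 spot-to-spot SD of 0 and alternatives turned them, *IARS1* to as much as 0.055 and *GARS1* to 0.20 without the deviation of its neighbours. *WARS1*, without a match in its window, was among the lower members, and *YARS2*, the mitochondrial gene with a match, was higher with siRNA #8 by 0.50 ± 0.16. The size of the ratio therefore varied widely among genes that hold these letters.

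*ATF4* and most of a list of its target genes were likewise lower with siRNA #8 than with siRNA #7. Of 15 listed genes 14 were measured, and 13 of these were lower with siRNA #8 than with siRNA #7, with a median of -0.47, compared with 51.2% and -0.013 for all genes. Against the control, 12 of the 14 were above 0 with siRNA #7 (median 0.52) and 8 with siRNA #8 (median 0.012), compared with 51.7% and 50.8% of all genes. *ATF4* itself read 25359 in control cells, 29446 after siRNA #7 and 20720 after siRNA #8, log2 ratios of 0.54 and 0.012. *CHAC1*, which degrades glutathione, read 152.4, 487.9 and 111.8, and *ASNS*, asparagine synthetase, read 4653, 7565 and 2418. Between the siRNAs the ratio was -2.15 ± 0.16 for *CHAC1* and -1.67 ± 0.15 for *ASNS*, so both were lower with siRNA #8 by more than any synthetase. *PHGDH* and *PSAT1*, successive enzymes of serine synthesis, went opposite ways, at -1.09 ± 0.15 and 0.93 ± 0.15. These 4 targets were singled out after their values were seen, and the part played by ATF4 in the synthetase values was not tested.

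**Figure D4:**
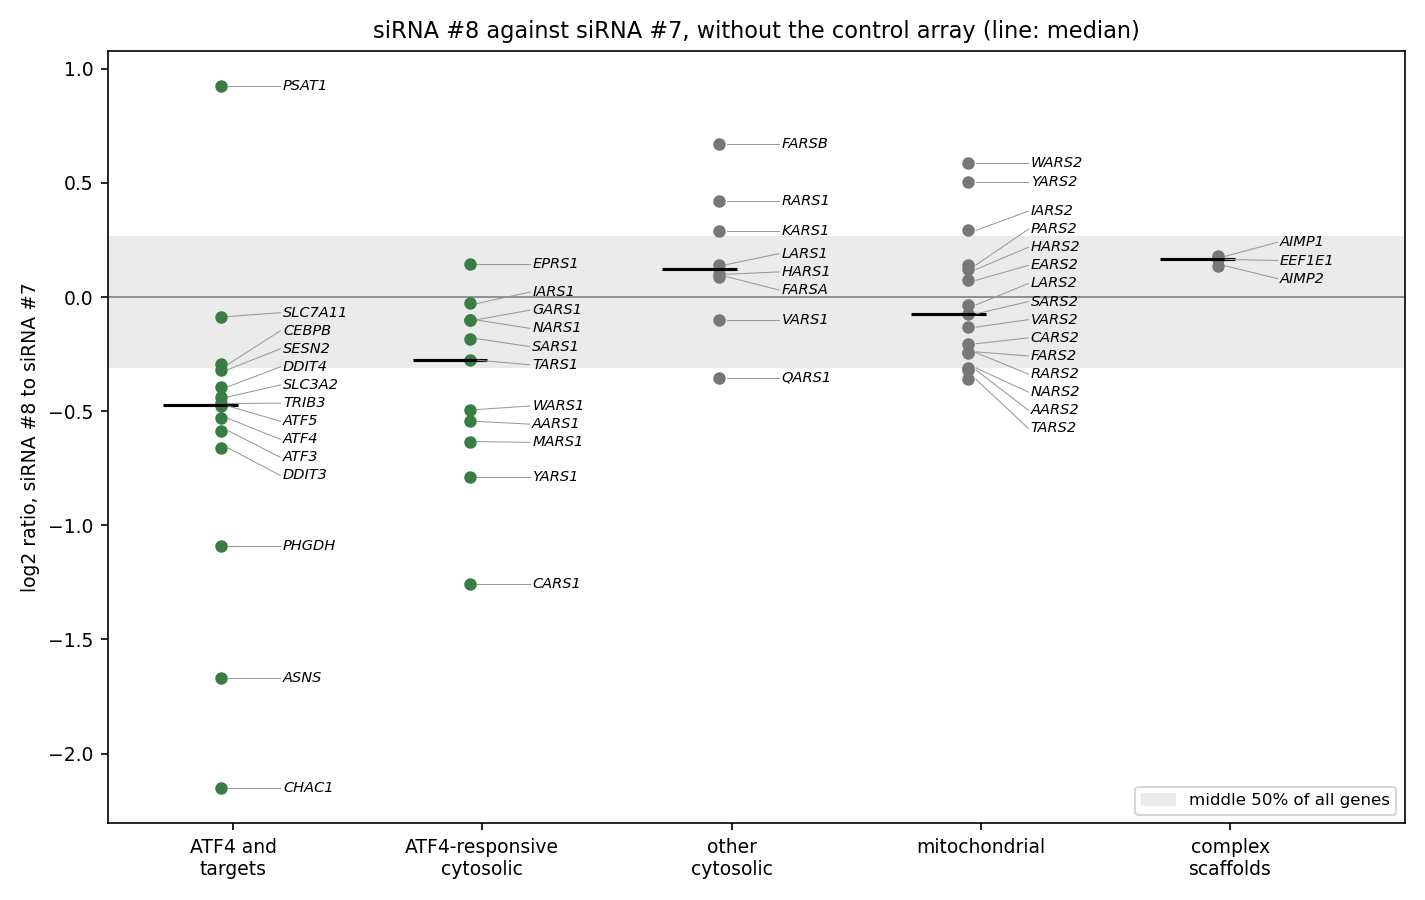
Log2 ratio of siRNA #8 to siRNA #7 (vertical) for *ATF4* and its targets, the 11 ATF4-responsive cytosolic enzymes, the other 8 cytosolic enzymes, the 15 mitochondrial enzymes and the 3 scaffold proteins of the multisynthetase complex, 1 point per gene with the median as a line and the middle 50% of all genes in grey. The medians are -0.47, -0.28, 0.12, -0.074 and 0.16.

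Enzymes were also grouped by structure or partner. The 17 measured class I enzymes had median ratios of 0.15 and -0.053, and the 16 class II enzymes 0.10 and -0.019, the classes being the families with different catalytic folds, and between the siRNAs both classes had a median of -0.10. The 7 enzymes of the multisynthetase complex, an assembly of cytosolic synthetases, had medians of 0.064 and 0.20, and its scaffolds *AIMP1*, *AIMP2* and *EEF1E1* read 0.095, 0.023 and -0.0013 with siRNA #7 and 0.27, 0.16 and 0.16 with siRNA #8. Between the siRNAs the median was 0.14 for the complex enzymes, of which 4 of 7 were higher with siRNA #8, and 0.16 for the scaffolds, 3 of 3 higher, beside -0.10 for all 19 cytosolic enzymes. Of all genes 48.8% were higher with siRNA #8, with a median of -0.013. Within the complex *RARS1*, for arginine, read 3684, 2919 and 3972, with ratios of -0.0075 ± 0.14 and 0.41 ± 0.15, whereas *LARS1*, for leucine, stood at 0.064 and 0.21. The enzymes serving both compartments, *GARS1* and *KARS1*, for glycine and lysine, had ratios of 0.081 and -0.23 with siRNA #7 and of -0.018 and 0.054 with siRNA #8.

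The members not described above differed from control by little. Among the cytosolic enzymes, *SARS1*, *TARS1* and *VARS1*, for serine, threonine and valine, ranged from 0.18 to 0.27 with siRNA #7 and from -0.10 to 0.097 with siRNA #8. Among the mitochondrial enzymes, *AARS2*, *CARS2*, *FARS2*, *LARS2*, *RARS2*, *SARS2* and *VARS2* ranged from 0.031 to 0.22 with siRNA #7 and from -0.21 to 0.19 with siRNA #8.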

How the data were processed

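Cy3-labelled RNA of HCT116 cells was measured on 3 arrays, 1 each for control siRNA, siRNA #7 and siRNA #8. The intensity of each spot was deposited by the authors as extracted with Agilent Feature Extraction 11.5.1.1 (background subtracted, arrays not scaled). A second table, of log2 values that the authors deposited, served as an alternative. Set against the intensities, its differences ran in the same direction with a slope of 1.00 and shifts that match the 75th percentile, its values are centred probe by probe on the median of the arrays, and each column has a median of 0.

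Outlier spots were dropped by their flag (313 to 413 per array), spots of a probe were averaged, and log2 intensity minus the array's 75th percentile over gene probes was computed in Python 3.11.15 (numpy 2.4.6, pandas 2.3.3), with normexp (offset 50, on median signals, since the mean signal is not used here) from limma 3.58.1 in R 4.3.3. A probe passed when at least 50% of its spots were well above background on each array. Spot-to-spot SDs were pooled in 6 ranges of signal and combined over both arrays of a ratio. The script was tested on simulated data. Array number and not depth limits precision. Neighbours are spots within 3 rows and columns. The value quoted for them is the median of their ratios, and a ratio after removal of their deviation is not the ratio minus that median.

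Accessions were matched to RefSeq gene names. Members described in full were those that passed 1.5-fold, one way, with both siRNAs, the 5 highest and 5 lowest by the mean of both ratios and the 3 amino acids whose partners differed most, and exceptions are named as such. In the other lists the rule named genes past 1.5-fold with both siRNAs. The members and lists were chosen with earlier results of these data known. A planned comparison of partner protein sequences was not made, because no protein table was used here. Arrays of cells overexpressing *HOXA5* short RNA were not analysed here.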

Additional observations from a re-analysis of the deposited data

How the results depend on the processing

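No paired analysis was possible because 1 array was made per condition. Of 1020 ratios of single members recomputed under 10 alternatives, 884 moved by less than their spot-to-spot SD, 136 by more, and none past 1.5-fold changed direction. Of the alternatives, spike-in scaling, the percentile over usable probes and correction for neighbouring spots were chosen once the data had been seen, as were the medians of the ATF4-responsive and other cytosolic enzymes. With each array's median as the scale, the cytosolic medians were 0.075 (siRNA #7) and -0.080 (siRNA #8), the mitochondrial 0.047 and -0.091, the ATF4-responsive 0.17 and the other cytosolic -0.16 (both siRNA #7), and 4 members passed 1.5-fold with siRNA #7. With normexp the cytosolic medians were 0.012 and -0.13, the mitochondrial -0.051 and -0.17, the ATF4-responsive 0.086 and -0.24 and the other cytosolic -0.16 and -0.057, and 0 members passed 1.5-fold with siRNA #8 or with both. E1A spike-in scaling moved the median of all genes to -0.26 and -0.19. Under it the cytosolic medians were -0.13 and -0.21, the mitochondrial -0.16 and -0.22, the ATF4-responsive -0.035 and -0.26 (-0.19 between the siRNAs) and the other cytosolic -0.37 and -0.12 (0.20 between the siRNAs), and 5 members passed 1.5-fold with siRNA #7. Removal of neighbouring spots gave cytosolic medians of 0.20 and 0.11, a mitochondrial median of 0.021 with siRNA #7, cytosolic minus mitochondrial differences of 0.18 and 0.12, and other cytosolic medians of 0.0045 and 0.23 (0.30 between the siRNAs). The percentile over usable probes gave a cytosolic median of 0.033 with siRNA #8. At 2-fold, 1 member was higher with each siRNA, beside 247 (siRNA #7) and 235 (siRNA #8) of 12031 genes. The share of all genes past 1.5-fold is not given for the other scalings, so these counts describe the setting and not the members. The cause of the shifts in medians and counts was not tested. Quantile normalization, the deposited table, leaving *GARS1* and *KARS1* out of the cytosolic median, the mean of a gene's probes and a stricter or no filter on dim probes kept these medians within their spread and counts within 1.5 times. Without a filter, however, the median of all 21612 genes was 0.15 with siRNA #7 and 0.14 with siRNA #8. The cytosolic medians beside it were 0.15 and -0.020, and the mitochondrial 0.12 and -0.016.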

Other observations

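The medians of the lists of genes that act beside the synthetases were also near the control. Of 12 genes for tRNA maturation, export and related steps 9 were measured, and their median log2 ratio was 0.016 after siRNA #7 and -0.065 after siRNA #8. Single genes ran from -0.40 to 0.75 with siRNA #7 and from -0.55 (*XPOT*) to 0.64 with siRNA #8. *PSTK*, the kinase that acts on seryl-tRNA on the way to selenocysteine, was the gene of this list past 1.5-fold with both siRNAs. This is 1 of 9 beside 3.03% of all genes, with no test. It read 66.2 in control cells, 88.6 after siRNA #7 and 83.7 after siRNA #8. The ratios were 0.75 ± 0.25 and 0.64 ± 0.26, and both share the control array. *TRNT1*, which adds the CCA end to tRNAs, read 58.1, 35.1 and 63.9 and was 0.84 ± 0.31 higher with siRNA #8 than with siRNA #7, and was chosen after its value was seen. The 8 genes of cytosolic elongation and the GCN2 pathway had medians of 0.12 and 0.15. *EIF2AK4*, which encodes GCN2, had ratios of -0.29 and 0.26.

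Of 15 genes of mitochondrial translation 14 were measured, with medians of -0.084 and -0.082. Of these, 3 were above the control with siRNA #7 and 6 with siRNA #8, compared with 51.7% and 50.8% of all genes. With siRNA #7, 11 of the 14 lay within 1 spot-to-spot SD of 0 and 0 beyond 2 SD. The mitochondrial synthetases had 11 and 6 of 15 above the control. *WARS1*, known as an interferon-induced gene, was lower with siRNA #8 (-0.34), while the interferon-induced *IFIT1* and *ISG15* had ratios of 0.88 and 0.59. Of the 8 interferon genes listed 5 were measured.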
